A study of Homo sapiens with 12 samples.

Results

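The nuclear genes of the respiratory chain complexes were followed in newly made RNA of the U2OS MycER line. U2OS comes from a human osteosarcoma, and MycER is a Myc protein held inactive by an estrogen receptor domain until the drug OHT binds it. Members were taken by symbol: NADH dehydrogenase genes (NDUFA, NDUFB, NDUFC, NDUFS and NDUFV with a number, and NDUFAB1), the 4 succinate dehydrogenase genes, CYC1 and the UQCR genes, the nuclear cytochrome c oxidase genes COX4 to COX8, and the ATP5 genes of ATP synthase. Of 89 symbols that matched, the pseudogenes ATP5F1EP2 and UQCRBP1 were left out, which gave 87 members among 23434 genes in the count table: 37 of complex I, 4 of complex II, 10 of complex III, 16 of complex IV and 20 of complex V. The rule used symbols and no measured value, but it was set with earlier results of these data known.

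After infection with virus, cells carried a doxycycline-induced shRNA that was either non-targeting (shNT) or directed at CDK12 (shCDK12). Each arm was left without or treated with OHT at 300 nM for 40 h. All 4 groups, controls included, received doxycycline at 1 µg/mL, were arrested in mitosis with nocodazole at 100 ng/mL for 8 h and collected by shake-off. They were then released for 12 h, with 0.5 mM 5-ethynyl-uridine present for the last 2 h. Each group had 3 libraries (12 in all), to each of which 10 µg of mouse RNA was added per 40 µg of human RNA. Whether a vehicle was used, how many shRNA sequences were used and whether the lines were single clones was not given. Nor was it given whether the 3 libraries came from separate cultures, so p-values measure the spread between these libraries, which may be technical. The mouse genes were not analysed here, so all values are relative to the library and not to the amount of RNA a cell made. Fewer cells of a kind and less RNA per cell cannot be told apart.

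The respiratory chain sits in the inner mitochondrial membrane. Complex I takes electrons from NADH and complex II from succinate, and ubiquinone carries them to complex III. Cytochrome c carries them on to complex IV, which reduces oxygen, and the proton gradient that complexes I, III and IV build drives ATP synthase, complex V. A few central subunits of complexes I, III, IV and V are made inside mitochondria from mitochondrial DNA, and all other subunits, all of complex II included, come from the nuclear genes described here. Their promoters are known for sites of NRF1, of the ETS factor GABP and of YY1, and many mitochondrial genes are listed among the targets of Myc.

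The libraries held between 1251695 and 10447836 counts, with the smallest in shNT+OHT. A count of 3 corresponds to between 0.285 and 2.48 CPM (counts scaled to library size, here by TMM) depending on the library, a floor that covers counting error only. Within groups, shNT+OHT replicate 1 stood furthest from its group (chi-square per degree of freedom of 8.57 and 9.31, against 2.69 to 6.88 for all other pairs of replicates). The transcript of the targeted gene, CDK12, gave 323, 289 and 300 CPM in shNT and 434, 356 and 400 in shNT+OHT. It gave 293, 277 and 298 CPM in the libraries labelled shCDK12 and 215, 208 and 218 in those labelled shCDK12+OHT. The libraries labelled shCDK12 thus overlapped those of shNT (log2 difference -0.076 ± 0.08 SE, adjusted p = 0.447 by edgeR's quasi-likelihood test), whereas those labelled shCDK12+OHT lay below shNT+OHT without overlap (-0.88 ± 0.11, adjusted p = 0.00011).

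A check list of 10 Myc targets went against the labels in the same arm. In shNT, 8 of the 10 were higher with OHT and 0 lower (median log2 fold change 0.79). In the libraries labelled shCDK12, 0 were higher with OHT and 8 lower (median -0.64). Without OHT 7 were already higher in the libraries labelled shCDK12 than in shNT. Every comparison below other than OHT in shNT rests on the libraries of this arm, which are therefore called by their labels. An exchange of the groups labelled shCDK12 and shCDK12+OHT is possible, and the labels were kept throughout. With the 2 groups exchanged, an alternative chosen after seeing the data, every log2 fold change upon OHT in this arm turns its sign, so that 8 of the 10 Myc targets are higher with OHT and 0 lower. CDK12 is then lower in the shCDK12 arm without OHT (-0.51 ± 0.07, adjusted p = 7.69e-07) and with OHT (-0.44 ± 0.12, adjusted p = 0.0107). The difference between the OHT responses is called for 688 of 11699 genes (5.88%) when exchanged and for 5289 (45.2%) as labelled. For the members, values of this exchange stand beside the main results they change. For the cell type markers and the lists of genes around the chain, calls were not counted with the groups exchanged.

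Of 8 markers of a mesenchymal line, VIM, FN1, CDH2, RUNX2, SPARC and THY1 were present (at least 19.9 CPM in every library), while COL1A2 (at most 1.16 CPM) and TWIST1 (at most 0.21 CPM) were at or near 0. The 4 blood markers stayed at or under 1.37 CPM. The 3 neuronal markers stayed at or under 18.9 CPM. The 4 epithelial markers together took 0.00347% to 0.00459% of the counts in shNT and 0.00224% to 0.00352% in shNT+OHT. They took 0.00557% to 0.00645% in the libraries labelled shCDK12 and 0.0111% to 0.0123% in those labelled shCDK12+OHT. KRT19 among them had 0 counts in every library. CLDN4 was higher in the libraries labelled shCDK12 than in shNT (0.60 ± 0.16, adjusted p = 0.00205) and in those labelled shCDK12+OHT than in shNT+OHT (2.40 ± 0.18, adjusted p = 6.84e-06), where it ran from 97.8 to 110 CPM against 13.2 to 24.6. EPCAM gave at most 1.76 CPM in shNT and 6.66 to 9.55 in the libraries labelled shCDK12, and CDH1 differed by -0.70 ± 0.31 between these groups (adjusted p = 0.0516). The 6 mesenchymal markers that were present were all lower in the libraries labelled shCDK12 than in shNT (median log2 fold change -1.48), against 32.4% of all genes. In shCDK12+OHT against shNT+OHT, 3 of 6 were lower (median -0.56), against 21.6% of all genes. Upon OHT 4 of the 6 were lower in shNT (median -0.55), against 8.29% of all genes. In the libraries labelled shCDK12, 4 were higher with OHT (median 0.56), against 27.5% of all genes. With the groups exchanged these 4 would be lower upon OHT. The part of these markers in the differences below was not tested.

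Most members were transcribed at a measurable level. Per kilobase of the canonical transcript, the mean level in shNT spanned 0.431 to 135 CPM among the 82 members with any count there, a 313-fold range, with a median of 26.9. NDUFB9, an accessory subunit of complex I, CYC1, the cytochrome c1 of complex III, COX4I1, a subunit of complex IV, and NDUFS5, an accessory subunit of complex I, led with 135, 120, 119 and 119 CPM per kilobase. The median of complex I (16.7) was the lowest of the 5 complexes and that of complex IV (42.3) the highest, but the ranges within the complexes (1.24 to 135 and 0.431 to 119) overlapped over nearly their whole width, as the plot of levels by complex shows.

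**Figure D1:**
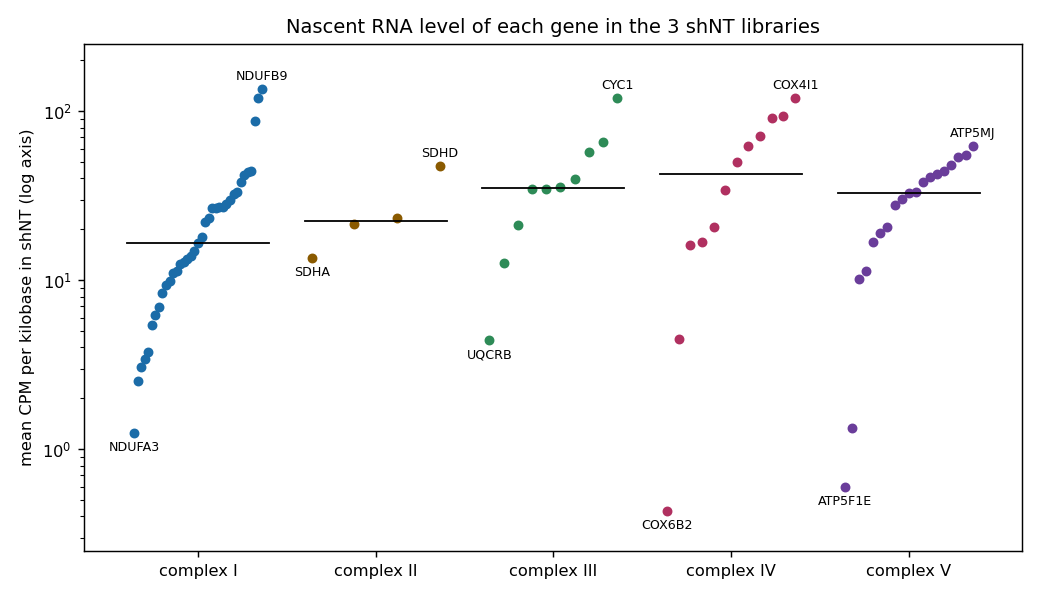
Mean TMM-scaled CPM per kilobase of canonical transcript in the 3 shNT libraries (log axis), 1 point a gene and 1 column a complex, with the median of each complex as a line. The 82 members with counts in shNT are plotted, and the range within a complex runs from 3.49-fold in complex II to 276-fold in complex IV.

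The tissue isoforms of complex IV were at or near 0, with COX7A1 as the exception. COX4I2, the lung isoform of COX4I1, held 0 or 1 count in each library, and so did COX7B2, the testis form of COX7B. COX8C, the testis form of COX8A, held 0 counts in all 12 libraries, which per library allows up to 0.285 to 2.48 CPM. COX6A2, the heart and muscle isoform of COX6A1, held 5 counts in shNT+OHT replicate 1 and at most 1 in any other library, and COX6B2, the testis isoform of COX6B1, at most 13 counts. COX7A1, the heart and muscle isoform, was the only tissue isoform to reach the tests, in 1 of the 5, with 5.62, 3.12 and 8.52 CPM in shNT and 6.27, 2.47 and 4.35 in shNT+OHT. It gave 1.62, 4.51 and 3.52 CPM in the libraries labelled shCDK12 and 6.93, 5.61 and 6.17 in those labelled shCDK12+OHT. Its partner COX7A2 gave 32.1, 34.2 and 33.1 CPM in shNT and 20.1, 36.3 and 35.1 in shNT+OHT. It gave 21.3, 34.6 and 25.7 CPM in the libraries labelled shCDK12 and 35.5, 35 and 42.4 in those labelled shCDK12+OHT. Both were higher in the libraries labelled shCDK12+OHT than in those labelled shCDK12 without overlap. For COX7A1 all other pairs of groups overlapped, and for COX7A2 all but shNT and shCDK12+OHT did. Of 5 markers of striated muscle, 4 stayed at or under 1.99 CPM and TNNT2 reached 12.2 CPM.

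Of the 87 members, 74 had a mean normalised count above 32 in at least 1 of the 5 fits and were tested there, 64 of them in all 5. The 13 that were never tested were NDUFA3, NDUFA7 and NDUFB1 of complex I, UQCRHL of complex III, COX4I2, COX6A2, COX6B2, COX7B2 and COX8C of complex IV, and ATP5F1E, ATP5ME, ATP5MF-PTCD1 and ATP5MGL of complex V. UQCRHL and ATP5MGL are copies of UQCRH and ATP5MG elsewhere in the genome, and ATP5MF-PTCD1, a readthrough of ATP5MF into its neighbour, held 0 counts in every library. By their annotated spans 35 of the 87 overlap another gene. The use of strand in the counting was not given, so the reads of NDUFC2 and its readthrough NDUFC2-KCTD14, of NDUFB11 and RBM10, or of ATP5F1B and BAZ2A cannot be told apart with certainty.

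Promoter sequences were available for 69 of the 87 members in the RefSeq table (GRCh38.p14). The 250 bases before the start were searched on both strands for 4 motifs, none of which contains another: the NRF1 consensus, CCGGAAG (the ETS core of GABP), AAGATGGC (YY1) and CACGTG (the E-box of Myc and Max). The ETS core was found in 17 of 69 members (24.6%), against 8.82% of all 27305 promoters in the table and 16.8% of the 9409 promoters of genes tested here. The NRF1 consensus, which allows either pyrimidine or either purine at 3 places, was found in 5 members (7.25%, against 1.34% of all and 2.61% of the tested promoters). Its exact palindromic core, searched first, was found in 3 (4.35%, against 1.13% and 2.09%). The E-box was found in 6 (8.70%, against 6.49% and 9.02%) and the YY1 letters in 1 (1.45%, against 1.37% and 1.91%). The share with an E-box was thus close to that of the tested genes as a whole.

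The promoters shown are those of the members that answered OHT in shNT and were in the table, COX6A1, NDUFB11 and NDUFS1 (the first of 2 listed starts), and of the 5 members with the NRF1 consensus, NDUFA12, NDUFA3, NDUFB4, SDHD and UQCR11. They let a reader compare genes that moved with genes that carry the best known site of the family. Each runs 5′ to 3′ on the gene's strand and ends at the base before the start. Capitals mark the motifs: the ETS core in COX6A1, NDUFS1, SDHD and UQCR11 (CTTCCGG where it reads on the other strand), the NRF1 consensus in the 5 named last, and the E-box in UQCR11.
COX6A1, chr12:120437863-120438112, plus strand: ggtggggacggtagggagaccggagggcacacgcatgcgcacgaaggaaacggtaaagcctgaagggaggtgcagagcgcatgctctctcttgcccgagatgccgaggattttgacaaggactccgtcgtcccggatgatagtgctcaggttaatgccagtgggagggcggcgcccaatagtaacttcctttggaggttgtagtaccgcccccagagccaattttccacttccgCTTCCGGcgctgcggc
NDUFB11, chrX:47144703-47144952, minus strand: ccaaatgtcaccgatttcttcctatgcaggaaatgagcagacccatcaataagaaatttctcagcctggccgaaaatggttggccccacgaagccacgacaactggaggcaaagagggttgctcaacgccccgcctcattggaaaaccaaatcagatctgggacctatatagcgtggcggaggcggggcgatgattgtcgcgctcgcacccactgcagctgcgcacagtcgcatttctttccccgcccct
NDUFS1, chr2:206159445-206159694, minus strand: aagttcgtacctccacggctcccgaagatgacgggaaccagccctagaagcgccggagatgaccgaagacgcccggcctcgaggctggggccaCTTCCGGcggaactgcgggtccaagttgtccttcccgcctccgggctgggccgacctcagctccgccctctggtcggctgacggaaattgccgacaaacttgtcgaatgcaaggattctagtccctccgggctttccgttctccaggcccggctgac
NDUFA12, chr12:95003698-95003947, minus strand: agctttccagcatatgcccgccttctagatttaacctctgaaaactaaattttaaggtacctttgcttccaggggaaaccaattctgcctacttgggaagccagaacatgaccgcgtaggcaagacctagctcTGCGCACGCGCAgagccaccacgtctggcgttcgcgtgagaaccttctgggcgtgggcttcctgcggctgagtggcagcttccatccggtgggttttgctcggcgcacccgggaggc
NDUFA3, chr19:54102605-54102854, plus strand: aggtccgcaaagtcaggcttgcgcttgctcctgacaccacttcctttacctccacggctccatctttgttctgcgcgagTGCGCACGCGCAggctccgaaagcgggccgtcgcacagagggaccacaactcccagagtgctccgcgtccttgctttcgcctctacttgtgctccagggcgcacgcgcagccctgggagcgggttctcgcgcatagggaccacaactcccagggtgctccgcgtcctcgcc
NDUFB4, chr3:120596086-120596335, plus strand: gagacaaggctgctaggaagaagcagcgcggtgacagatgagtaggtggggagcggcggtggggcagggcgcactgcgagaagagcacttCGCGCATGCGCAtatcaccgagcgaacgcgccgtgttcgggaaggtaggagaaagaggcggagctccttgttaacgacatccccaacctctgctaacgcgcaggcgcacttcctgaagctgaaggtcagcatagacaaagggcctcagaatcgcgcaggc
SDHD, chr11:112086623-112086872, plus strand: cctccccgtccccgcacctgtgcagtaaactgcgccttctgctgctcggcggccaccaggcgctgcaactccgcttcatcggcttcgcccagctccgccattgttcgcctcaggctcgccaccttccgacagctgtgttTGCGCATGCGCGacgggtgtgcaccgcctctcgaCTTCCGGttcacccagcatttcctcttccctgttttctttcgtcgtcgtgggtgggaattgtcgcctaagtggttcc
UQCR11, chr19:1605463-1605712, minus strand: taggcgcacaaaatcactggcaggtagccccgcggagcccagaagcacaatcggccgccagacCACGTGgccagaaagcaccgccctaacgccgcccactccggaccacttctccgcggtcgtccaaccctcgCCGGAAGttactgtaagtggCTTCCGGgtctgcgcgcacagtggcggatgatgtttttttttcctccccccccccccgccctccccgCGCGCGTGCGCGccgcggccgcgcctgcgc
None of the 4 motifs was found in the window of NDUFB11. The members with and without the ETS core had a median log2 fold change upon OHT in shNT of 0.09 (15 tested) and 0.20 (37 tested). In the libraries labelled shCDK12 the medians were 0.18 (17) and 0.07 (43). The 4 tested members with the NRF1 consensus had a median of 0.18 upon OHT in shNT, the same as the 48 without it. These medians are a description, and a match of letters does not show that a factor is bound.

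MycER activation in shNT changed few respiratory chain genes. Of 65 members tested, 4 passed an adjusted p of 0.05 (6.15%), against 1782 of 10272 genes (17.3%). Of the 4, 3 were higher (4.62%, against 9.05% of all genes) and 1 was lower (1.54%, against 8.29%). The members' median log2 fold change was 0.16, that of all genes -0.029, and the members ranged from -0.69 to 0.87. NDUFB9 gave 100, 92.9 and 86.2 CPM in shNT and 141, 130 and 142 in shNT+OHT, and the groups did not overlap (log2 fold change 0.56 ± 0.14 SE, adjusted p = 0.0118). NDUFB11, which like NDUFB9 is an accessory subunit of the membrane arm of complex I, gave 20.4, 22.4 and 15.5 CPM in shNT and 38.5, 34.6 and 29.9 in shNT+OHT, again without overlap (0.79 ± 0.23, adjusted p = 0.0304). COX6A1, the general isoform of a small complex IV subunit, gave 40.3, 61.1 and 48.6 CPM in shNT and 86.2, 57.7 and 95.4 in shNT+OHT, with shNT+OHT replicate 2 inside the range of shNT (0.70 ± 0.21, adjusted p = 0.0312). NDUFS1, the large iron-sulfur core subunit of complex I, was the member that fell, with 44.5, 48.6 and 38.1 CPM in shNT and 31.3, 30.5 and 25.2 in shNT+OHT and no overlap (-0.61 ± 0.20, adjusted p = 0.0495).

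No member of complexes II, III or V passed in this comparison: the 4 tested of complex II had log2 fold changes between -0.23 and 0.17, the 9 of complex III between -0.40 and 0.42, and the 16 of complex V between -0.69 and 0.87. In complexes II, III and V, 0, 2 and 2 members had an unadjusted p under 0.05, and DESeq2 called 3 members of the 65, all higher. The count depended on single libraries. Leaving out replicate 1, 2 or 3 of shNT gave 1, 0 and 0 members, and leaving out replicate 1, 2 or 3 of shNT+OHT gave 7, 7 and 3. With the trend of counts in gene length removed from each library, 1 member passed and the median of the members was 0.043.

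**Figure D2:**
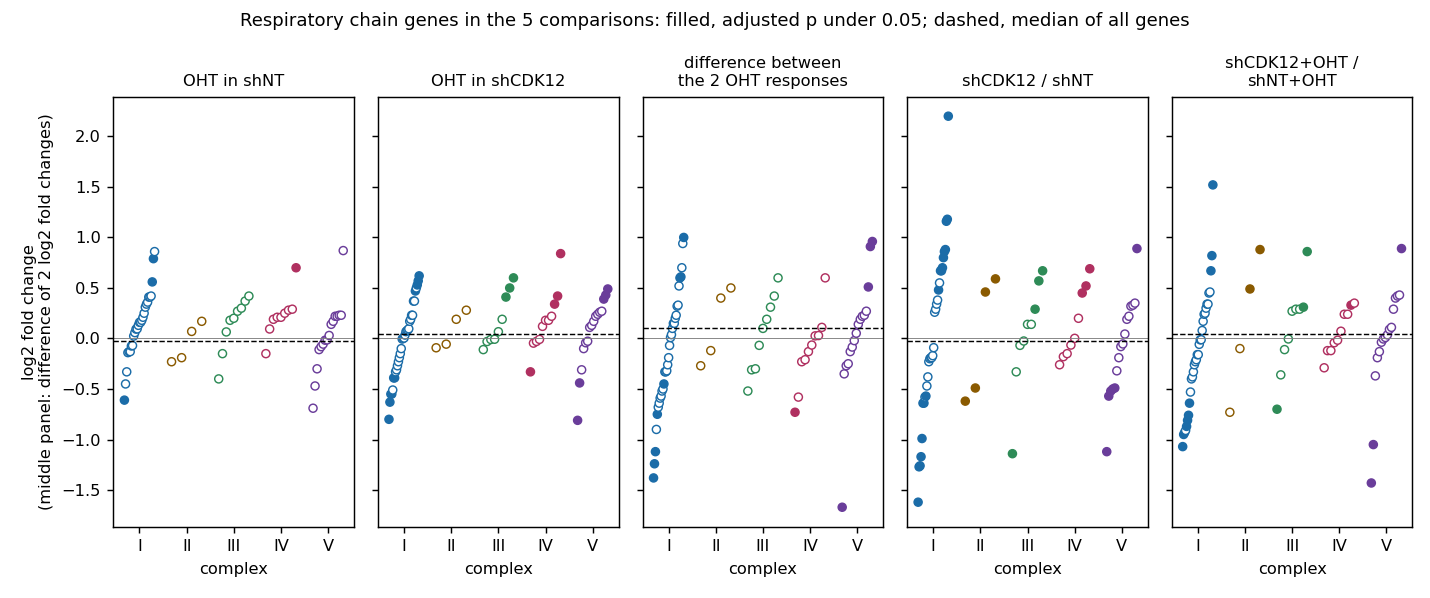
Log2 fold changes of every tested member, sorted within each complex, in the 5 comparisons (the middle panel is the difference between the 2 OHT responses), with filled points for an adjusted p under 0.05 and a dashed line for the median of all genes tested. Filled points number 4 in the first panel and 35 in that of shCDK12 against shNT, on both sides of 0.

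In the libraries labelled shCDK12 and shCDK12+OHT, OHT moved 22 of 73 members (30.1%, against 6128 of 12519 genes, 48.9%). Of these 13 were higher (17.8%, against 27.5%) and 9 lower (12.3%, against 21.5%). By DESeq2 the split was 9 higher and 11 lower. With the groups exchanged the same 22 pass with the opposite sign, 9 higher and 13 lower, and the same holds for each gene named here. As labelled, complex III rose where it moved: UQCRFS1, the Rieske iron-sulfur protein (0.50 ± 0.08, adjusted p = 9.24e-05), UQCRC1, a core subunit (0.41 ± 0.09, adjusted p = 0.00136), and the small subunit UQCR11 (0.60 ± 0.14, adjusted p = 0.00132), 3 of the 9 tested. Of 26 accessory subunits of complex I tested, 3 rose and 6 fell. NDUFB10, an accessory subunit of the membrane arm, fell the most of complex I (-0.80 ± 0.14, adjusted p = 0.000179), and NDUFB8 rose the most (0.62 ± 0.25, adjusted p = 0.0487). In ATP synthase, the F1 subunits ATP5F1A (0.39 ± 0.10, adjusted p = 0.00379) and ATP5F1C (0.43 ± 0.13, adjusted p = 0.0102) rose. The F1 subunit ATP5F1D fell (-0.81 ± 0.21, adjusted p = 0.00379), and ATP5IF1, the inhibitor of the enzyme's reverse reaction, fell (-0.44 ± 0.13, adjusted p = 0.0105). COX7A1 had the highest rise of all members as labelled, and would have the deepest fall with the groups exchanged (0.84 ± 0.29, adjusted p = 0.0241), but it passed the filter on low counts only in this comparison, where its level in the libraries labelled shCDK12+OHT was between 5.61 and 6.93 CPM.

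The response to OHT differed between the arms for 13 of 72 members (18.1%, against 5289 of 11699 genes, 45.2%), by the interaction term of a fit of all 12 libraries. There were 6 with a more positive response in the libraries labelled shCDK12 (8.33%, against 25.6%) and 7 with a more negative one (9.72%, against 19.6%). The split was 4 and 12 with upper-quartile normalisation, which moved the median of all genes from 0.10 to -0.017. Without the library labelled shCDK12 replicate 3 the count was 8. With the groups labelled shCDK12 and shCDK12+OHT exchanged, 0 of these 13 passed by edgeR's test (3 had an unadjusted p under 0.05). In their place 3 of 72 did, against 688 of 11699 genes (5.88%). These were all of complex III and all with a more negative response: UQCRFS1 (-0.70 ± 0.15, adjusted p = 0.0104), UQCRC1 (-0.71 ± 0.20, adjusted p = 0.0389) and UQCR11 (-0.79 ± 0.23, adjusted p = 0.0439). The 13 calls described next thus hold for the labels as given. As labelled, complex I held 8 of the 13, complex IV 1 and complex V 4.

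The widest difference was that of ATP5F1D, the delta subunit of F1, with 12.6, 9.76 and 8.02 CPM in shNT and 24.4, 14.8 and 16.2 in shNT+OHT. It gave 9.73, 14.7 and 11.3 CPM in the libraries labelled shCDK12 and 7.34, 6.94 and 6.53 in those labelled shCDK12+OHT. Its level was thus highest in shNT+OHT and lowest in the libraries labelled shCDK12+OHT, with no overlap between either of them and its own control (difference of log2 fold changes -1.67 ± 0.37, adjusted p = 0.00102). NDUFA11, an accessory subunit of the membrane arm, gave 8.67, 10.3 and 5.01 CPM in shNT and 19.4, 18.1 and 8.99 in shNT+OHT. It gave 17.8, 20.4 and 18.7 CPM in the libraries labelled shCDK12 and 12.9, 16 and 9.25 in those labelled shCDK12+OHT. Its shNT+OHT replicate 3 lay within the range of shNT (-1.38 ± 0.41, adjusted p = 0.00968). NDUFB10 gave 29.3, 26 and 32.6 CPM in shNT and 49.5, 20.6 and 41.2 in shNT+OHT. It gave 37.5, 30.6 and 42.2 CPM in the libraries labelled shCDK12 and 19.7, 21.2 and 22.1 in those labelled shCDK12+OHT. Its shNT+OHT libraries spread across the whole range of shNT (-1.24 ± 0.30, adjusted p = 0.00228). NDUFB9, described above in shNT, gave 173, 165 and 174 CPM in the libraries labelled shCDK12 and 102, 125 and 122 in those labelled shCDK12+OHT, so that it rose with OHT in one arm and fell in the other without overlap in either (-1.12 ± 0.15, adjusted p = 8.57e-06).

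NDUFB11 and COX6A1 had another shape, in which shNT alone was low. NDUFB11 gave 30.6, 27.7 and 37.6 CPM in the libraries labelled shCDK12 and 31.9, 32.4 and 33.2 in those labelled shCDK12+OHT, both above shNT without overlap and both overlapping shNT+OHT (difference of responses -0.75 ± 0.25, adjusted p = 0.0202). COX6A1 gave 73.0, 80.8 and 89.0 CPM in the libraries labelled shCDK12 and 76.6, 73.7 and 89.1 in those labelled shCDK12+OHT (-0.73 ± 0.24, adjusted p = 0.0166). NDUFA10, an accessory subunit of complex I, had the smallest negative difference that passed (-0.45 ± 0.18, adjusted p = 0.0490). Both NDUFB11 and COX6A1 lost the call with the length trend removed (adjusted p = 0.114 and 0.119).

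In the other direction, NDUFS1 gave 12.7, 22.9 and 22.0 CPM in the libraries labelled shCDK12 and 24.7, 24.1 and 27.9 in those labelled shCDK12+OHT, next to its fall in shNT (difference 1.00 ± 0.28, adjusted p = 0.00648). ATP5PD, a subunit of the peripheral stalk of ATP synthase, gave 30.9, 25.6 and 31.6 CPM in shNT and 12.8, 29.7 and 15.7 in shNT+OHT. It gave 20.6, 19 and 19.4 CPM in the libraries labelled shCDK12 and 22.4, 21.4 and 26.1 in those labelled shCDK12+OHT. Here shNT+OHT replicate 2 lay inside the range of shNT and the 2 others at or under 15.7 CPM (0.96 ± 0.32, adjusted p = 0.0191). ATP5F1C, the gamma subunit that turns inside F1, gave 33.3, 37.9 and 37.1 CPM in shNT and 19.1, 32.2 and 28.7 in shNT+OHT. It gave 23.9, 25.7 and 26.8 CPM in the libraries labelled shCDK12 and 31.2, 34.9 and 37.2 in those labelled shCDK12+OHT. It was lower with OHT in shNT and higher in the other arm, each time without overlap (0.91 ± 0.25, adjusted p = 0.00601). Of these, the falls of ATP5PD and ATP5F1C upon OHT in shNT did not pass on their own (-0.69 ± 0.30, adjusted p = 0.125, and -0.47 ± 0.23, adjusted p = 0.178).

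ATP5F1A and NDUFA6 rested on the libraries labelled shCDK12, where their level was low. ATP5F1A, the alpha subunit of F1, gave 108, 105 and 77.7 CPM in shNT and 82.4, 89.1 and 100 in shNT+OHT. It gave 66.7, 74.9 and 67.2 CPM in the libraries labelled shCDK12 and 80.6, 95.3 and 99.6 in those labelled shCDK12+OHT. Its responses differed by 0.51 ± 0.19 (adjusted p = 0.0399). NDUFA6, an accessory subunit, gave 90.6, 98.4 and 94.2 CPM in shNT and 87.7, 72.6 and 106 in shNT+OHT. It gave 38.9, 39.7 and 39.8 CPM in the libraries labelled shCDK12 and 56.4, 58.4 and 56.8 in those labelled shCDK12+OHT. Its responses differed by 0.60 ± 0.18 (adjusted p = 0.0117). In both, the libraries labelled shCDK12 were below shNT and below those labelled shCDK12+OHT without overlap, and shNT+OHT overlapped shNT.

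**Figure D3:**
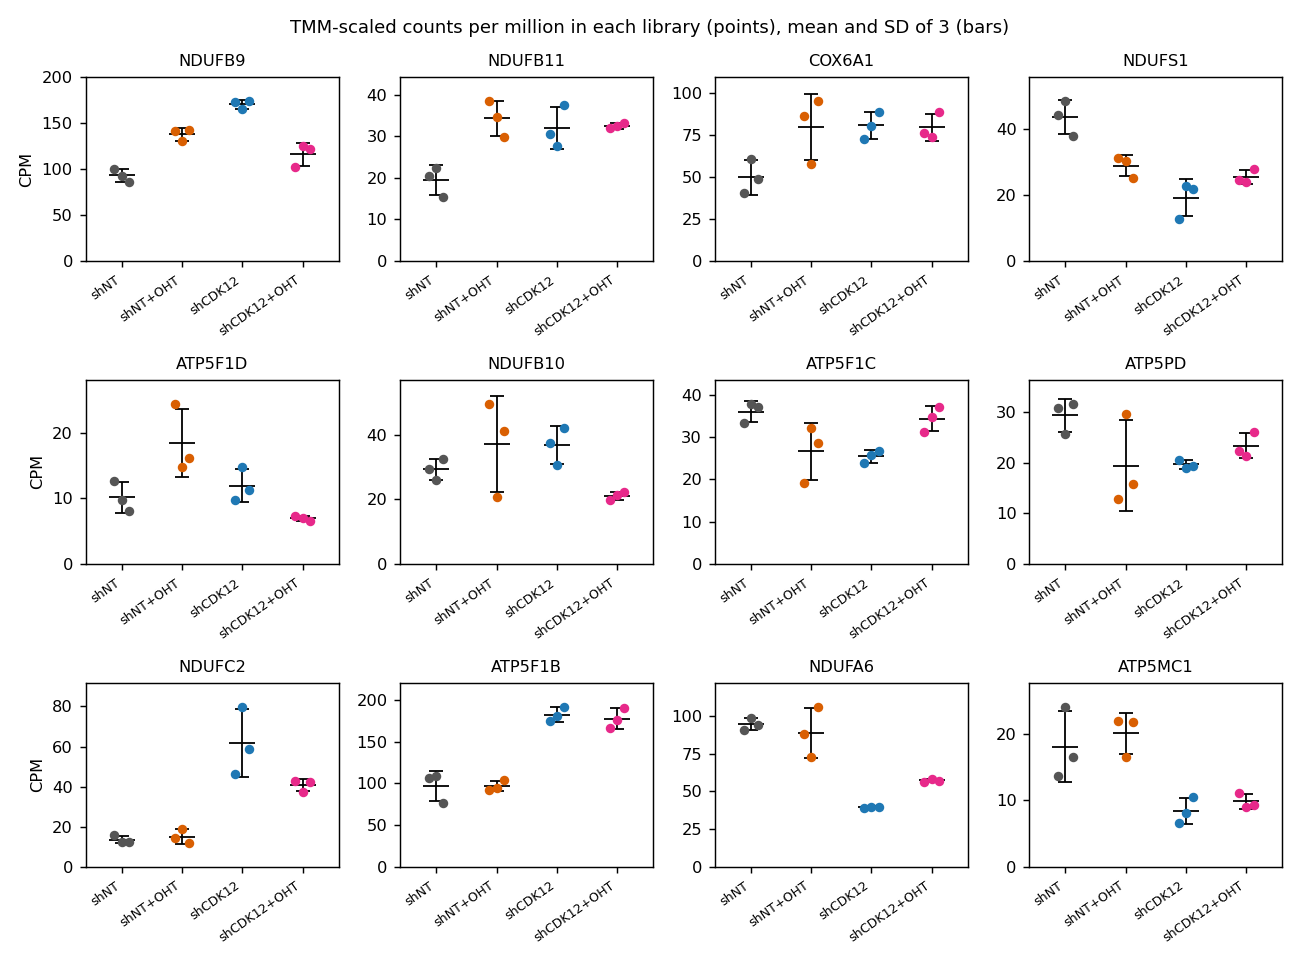
TMM-scaled CPM of 12 members in each of the 12 libraries (points, 3 a group), with the mean and SD of each group, on axes that start at 0. The first 8 panels hold members with a change upon OHT or a differing response, and the last 4 members with a difference between the shRNA arms; shNT+OHT libraries are the most spread in the panels of NDUFB10 and ATP5PD.

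Over the 64 members tested in both OHT comparisons, which share no library, 34 had opposite signs in the 2 arms, and Pearson's r of the log2 fold changes across these 64 genes was -0.41, a description over genes that share the same libraries within each arm and are not independent. With the groups of the shCDK12 arm exchanged, r was 0.41 and 30 of the 64 had opposite signs. Neither r nor the count of opposite signs was worked out over all genes, so neither can be called particular to the members. Among the 13 members with a called difference 12 had opposite signs, which their choice by that difference favours. NDUFB11 was the exception, with 0.79 in shNT and 0.034 in the other arm.

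**Figure D4:**
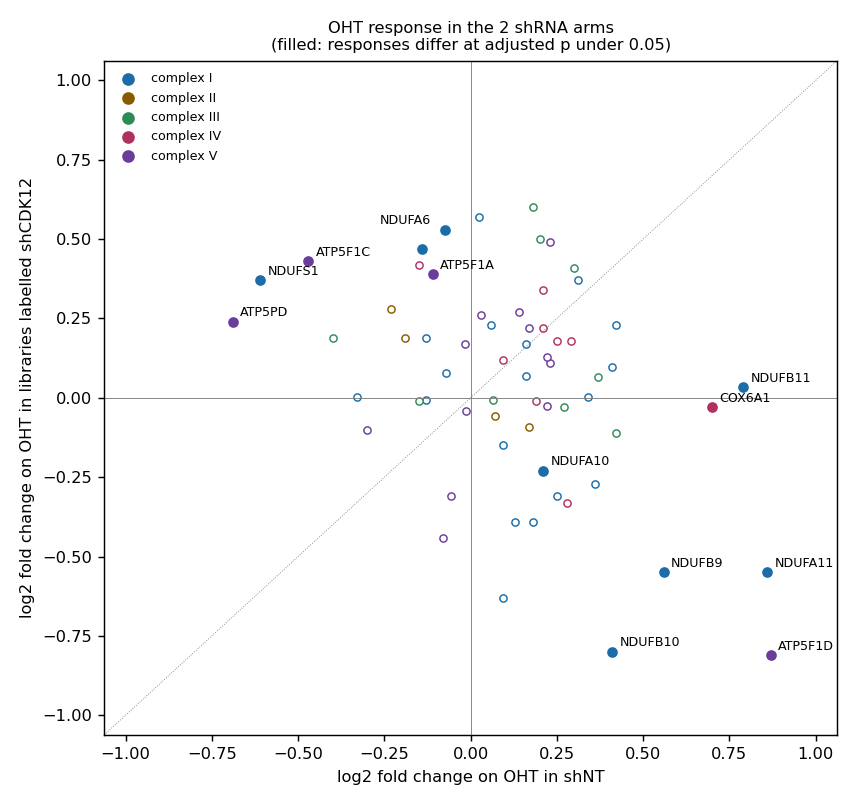
Log2 fold change upon OHT in shNT (horizontal) and between the libraries labelled shCDK12+OHT and shCDK12 (vertical) for the 64 members tested in both, coloured by complex, with the 13 members whose responses differed filled, and 12 of them named. Of the 64 points, 34 as labelled lie at the upper left and lower right; the dotted line marks equal responses.

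Between the shRNA arms without OHT, 35 of 70 members differed (50.0%, against 7265 of 11718 genes, 62.0%). There were 19 higher in the libraries labelled shCDK12 (27.1%, against 29.6%) and 16 lower (22.9%, against 32.4%). With OHT in both arms 19 of 71 differed (26.8%, against 5298 of 11668 genes, 45.4%), with 9 higher (12.7%, against 23.8%) and 10 lower (14.1%, against 21.6%). The split was 7 and 13 with upper-quartile or RLE normalisation and 13 and 9 with the length trend removed. This second count was 9, 10 or 12 without replicate 1, 2 or 3 of the libraries labelled shCDK12+OHT. With the groups of the arm exchanged, 41 of 74 members differed without OHT (25 higher, 16 lower), against 6667 of 11981 genes (55.6%). This count was close to the share of all genes, and 29 of the 35 were among them with the same sign. With OHT 17 of 69 differed (8 higher, 9 lower), against 4400 of 11238 genes (39.2%), and 12 of the 19 were among them with the same sign. In all comparisons as labelled the members' share of calls was below that of all genes. Of 7 core subunits of complex I tested without OHT, NDUFS3 was higher (0.70 ± 0.13, adjusted p = 7.26e-05) and 4 were lower, among them NDUFS1 and NDUFV2, whereas of its 25 accessory subunits 9 were higher and 4 lower.

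The 2 comparisons of the arms share no library, and 14 of the 69 members tested in both were called in both (40.0% of the members called without OHT and 73.7% of those called with it). All 14 had the same sign, 8 higher and 6 lower. The share of all genes called in both was not counted, so these 14 cannot be set against it. In the single comparisons 62.0% of all genes were called without OHT and 45.4% with it. With the groups of the arm exchanged 15 were called in both, 12 of them among these 14. The 8 were ATP5F1B, COX4I1, NDUFA9, NDUFC2, NDUFS6, SDHA, SDHD and UQCRH, and the 6 were ATP5MC1, NDUFA6, NDUFAB1, NDUFS8, NDUFV3 and UQCR11. NDUFC2, an accessory subunit of complex I chosen here after its values were seen, gave 15.7, 12.3 and 12.5 CPM in shNT and 14.4, 19 and 11.6 in shNT+OHT. It gave 46.3, 79.8 and 58.8 CPM in the libraries labelled shCDK12 and 42.7, 37.1 and 42.3 in those labelled shCDK12+OHT. Both groups labelled with shCDK12 lay above both shNT groups (log2 difference 2.20 ± 0.20, adjusted p = 5.99e-10, without OHT and 1.52 ± 0.21, adjusted p = 0.000252, with OHT), and the largest value of either shNT group was 19.0 CPM against a lowest of 37.1. ATP5F1B, the catalytic beta subunit of F1 and likewise chosen after its values were seen, gave 106, 109 and 76.7 CPM in shNT and 92.1, 94.9 and 104 in shNT+OHT. It gave 175, 181 and 192 CPM in the libraries labelled shCDK12 and 167, 176 and 191 in those labelled shCDK12+OHT. Again the arms did not overlap (0.89 ± 0.11, adjusted p = 9.23e-08, and 0.89 ± 0.12, adjusted p = 0.000198). As labelled, ATP5F1B thus was higher while ATP5F1A and ATP5F1C, its partners in F1, were lower without OHT (-0.49 ± 0.12, adjusted p = 0.00106, and -0.50 ± 0.16, adjusted p = 0.0089). With the groups exchanged ATP5F1B kept its call without OHT, and ATP5F1A and ATP5F1C did not pass.

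**Figure D5:**
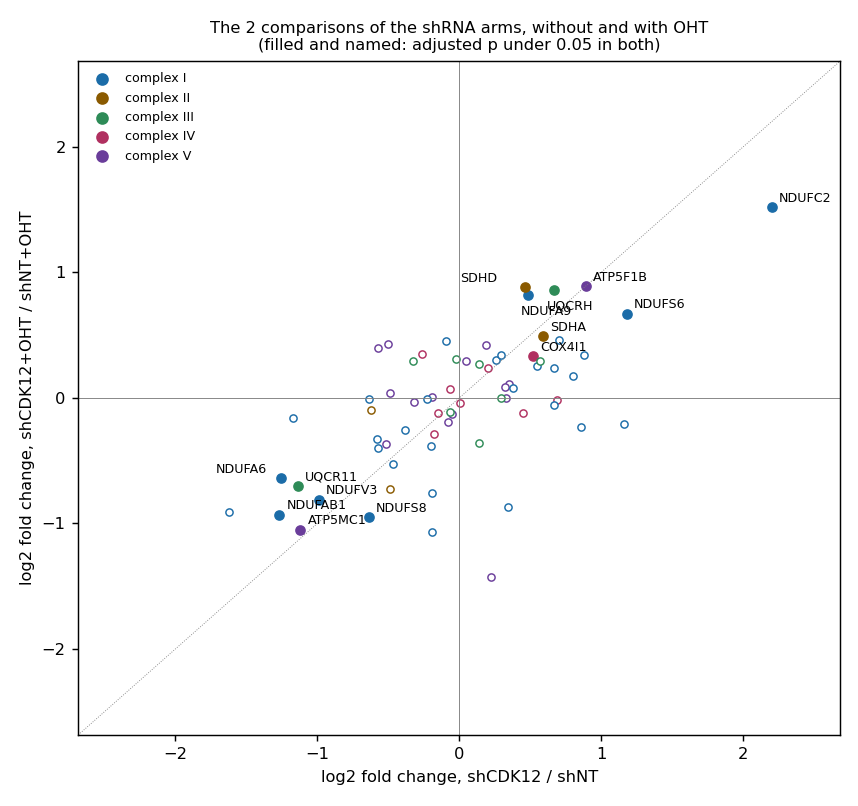
Log2 fold change between the shRNA arms without OHT (horizontal) and with OHT (vertical) for the 69 members tested in both, coloured by complex, with the 14 members called in both filled and named. The 14 lie at the upper right (8) and lower left (6), with NDUFC2 at 2.20 and 1.52; the dotted line marks equal differences.

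Of the 12 others, 6 were of complex I, which held 32 of the 70 members tested without OHT and 32 of the 71 tested with it. Higher in both was NDUFS6, an accessory subunit that binds zinc (1.18 ± 0.19 without OHT, adjusted p = 5.86e-06, and 0.67 ± 0.23 with it, adjusted p = 0.0316). So were NDUFA9 (0.48 ± 0.15, adjusted p = 0.00904, and 0.82 ± 0.20, adjusted p = 0.00591) and UQCRH, the hinge protein of complex III (0.67 ± 0.21, adjusted p = 0.00694, and 0.86 ± 0.27, adjusted p = 0.0224). Lower in both was NDUFAB1, the mitochondrial acyl carrier protein (-1.27 ± 0.28, adjusted p = 0.000386, and -0.93 ± 0.33, adjusted p = 0.0410). Lower too were NDUFS8, a core iron-sulfur subunit (-0.64 ± 0.18, adjusted p = 0.00433, and -0.95 ± 0.20, adjusted p = 0.00292), NDUFV3 (-0.99 ± 0.18, adjusted p = 4.75e-05, and -0.81 ± 0.20, adjusted p = 0.00671) and UQCR11 (-1.14 ± 0.16, adjusted p = 7.1e-07, and -0.70 ± 0.18, adjusted p = 0.00842). Without OHT, NDUFB5, an accessory subunit of the membrane arm, had the lowest value of all members (-1.62 ± 0.31, adjusted p = 6.77e-05), and NDUFA12 (0.88), NDUFB6 (0.80), UQCR10 (0.57) and CYC1 (0.29) passed as higher and the stalk subunit ATP5PB (-0.52) as lower. With OHT, ATP5F1D, NDUFB7 (-1.07), NDUFB10 (-0.87) and the NADH-binding core subunit NDUFV1 (-0.76) passed as lower and UQCRFS1 (0.31) as higher. With the groups exchanged none of these genes named with OHT passed in that comparison, and neither did UQCRH.

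Taking the 6 libraries labelled shCDK12 or shCDK12+OHT against the 6 of shNT or shNT+OHT, 15 of 72 members did not overlap (20.8%, against 22.5% of 11699 genes), 9 higher and 6 lower (10.8% and 11.7% of all genes). This count does not depend on which group of an arm had OHT. The 9 higher were ATP5F1B, COX4I1, NDUFA10, NDUFA9, NDUFC2, NDUFS3, NDUFS6, SDHA and UQCR10, and the 6 lower were the same genes as those called lower in both comparisons. The share is close to that of all genes. As a share of all counts, the 87 members together took 0.265% to 0.275% in shNT and 0.277% to 0.301% in shNT+OHT. They took 0.295% to 0.310% in the libraries labelled shCDK12 and 0.302% to 0.331% in those labelled shCDK12+OHT.

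Succinate dehydrogenase, complex II, is the only complex without a mitochondrial subunit. Its flavoprotein SDHA gave 33.5, 41 and 35.6 CPM in shNT and 33.5, 44.5 and 39.4 in shNT+OHT. It gave 58.4, 57.1 and 51.6 CPM in the libraries labelled shCDK12 and 51.3, 55.2 and 54.1 in those labelled shCDK12+OHT. It was higher in both groups of the shCDK12 label than in either shNT group. Its iron-sulfur subunit SDHB gave 22.7, 22.1 and 21 CPM in shNT and 14.1, 23.1 and 36.5 in shNT+OHT. It gave 17.1, 14.3 and 16.1 CPM in the libraries labelled shCDK12 and 14.4, 14 and 16 in those labelled shCDK12+OHT. The shNT+OHT libraries spread from 14.1 to 36.5 CPM. Between the arms without OHT, SDHA was higher (0.59 ± 0.14, adjusted p = 0.000712) and SDHB lower (-0.49 ± 0.20, adjusted p = 0.0336). The membrane anchor SDHC gave 24.1, 28.7 and 39.6 CPM in shNT and 26, 28.9 and 23.5 in shNT+OHT. It gave 19, 20.3 and 19.1 CPM in the libraries labelled shCDK12 and 22, 23.2 and 25.9 in those labelled shCDK12+OHT. It was lower in the arm labelled shCDK12 without OHT (-0.62 ± 0.19, adjusted p = 0.00735). With the groups exchanged SDHC did not pass there, while SDHA and SDHB kept their calls and signs. With OHT the difference of SDHC was -0.10 ± 0.19 (adjusted p = 0.674), and the change between these differences did not pass (0.50 ± 0.27, adjusted p = 0.136). The other anchor, SDHD, gave 58.8, 75.1 and 56.6 CPM in shNT and 42, 61 and 65.8 in shNT+OHT. It gave 73.7, 106 and 84 CPM in the libraries labelled shCDK12 and 113, 106 and 84.3 in those labelled shCDK12+OHT. It was higher in both comparisons (0.46 ± 0.14, adjusted p = 0.0051, and 0.88 ± 0.18, adjusted p = 0.00284). Without OHT the 4 subunits, which the complex holds in equal numbers, thus moved in both directions between the arms, and none passed for OHT in either arm.

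The 3 genes of the c-ring of ATP synthase, ATP5MC1, ATP5MC2 and ATP5MC3, code for the same mature protein with different import signals. ATP5MC1 gave 13.6, 24 and 16.5 CPM in shNT and 21.9, 16.5 and 21.7 in shNT+OHT. It gave 6.49, 8.08 and 10.5 CPM in the libraries labelled shCDK12 and 11.1, 9.03 and 9.25 in those labelled shCDK12+OHT. The arms did not overlap. ATP5MC2 gave 27.2, 32.2 and 21.6 CPM in shNT and 38.5, 27.2 and 29 in shNT+OHT. It gave 19.7, 24.3 and 21.5 CPM in the libraries labelled shCDK12 and 26.2, 34.2 and 32.1 in those labelled shCDK12+OHT. The libraries labelled shCDK12 lay below those labelled shCDK12+OHT without overlap, and shNT overlapped both. ATP5MC3 gave 54.1, 53.7 and 53.1 CPM in shNT and 34.8, 73.4 and 56 in shNT+OHT. It gave 45.4, 76.4 and 59.4 CPM in the libraries labelled shCDK12 and 72.1, 65.7 and 70.7 in those labelled shCDK12+OHT. ATP5MC1 was lower in the arm labelled shCDK12 without overlap, without OHT (-1.12 ± 0.26, adjusted p = 0.000619) and with it (-1.05 ± 0.22, adjusted p = 0.00326), while ATP5MC3 did not pass in either (0.19 ± 0.15, adjusted p = 0.294, and 0.42 ± 0.21, adjusted p = 0.131). ATP5MC2 passed only for OHT in the libraries labelled shCDK12 (0.49 ± 0.14, adjusted p = 0.00976). With the groups exchanged, this change of ATP5MC2 turned its sign.

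Among the remaining complex IV genes with a tissue isoform, COX4I1 gave 90.6, 91 and 90.7 CPM in shNT and 109, 97.3 and 105 in shNT+OHT. It gave 127, 128 and 135 CPM in the libraries labelled shCDK12 and 123, 130 and 135 in those labelled shCDK12+OHT. COX4I1 was higher in the arm labelled shCDK12 both without OHT (0.52 ± 0.10, adjusted p = 7.06e-05) and with OHT (0.33 ± 0.12, adjusted p = 0.0399). With the groups exchanged COX4I1 kept the call without OHT and did not pass with OHT. COX6B1 gave 38.2, 24.2 and 28.6 CPM in shNT and 40.1, 36.3 and 31.9 in shNT+OHT. It gave 28.7, 31.4 and 30.9 CPM in the libraries labelled shCDK12 and 32.1, 30.7 and 41.4 in those labelled shCDK12+OHT. COX6B1 passed in no comparison. COX7B gave 46.4, 40.0 and 32.6 CPM in shNT and 31.6, 63.5 and 53.9 in shNT+OHT. It gave 50.7, 59.2 and 54.2 CPM in the libraries labelled shCDK12 and 42.8, 41.5 and 47.2 in those labelled shCDK12+OHT. It was higher in the libraries labelled shCDK12 than in shNT (0.45 ± 0.14, adjusted p = 0.00948) and lower again with OHT in that arm (-0.33 ± 0.11, adjusted p = 0.0148). With the groups exchanged, COX7B did not pass between the arms without OHT, and its change upon OHT turned its sign. COX8A gave 48.7, 46.3 and 40.1 CPM in shNT and 60.5, 37.9 and 56 in shNT+OHT. It gave 40.3, 43 and 47 CPM in the libraries labelled shCDK12 and 55.3, 58.4 and 50.8 in those labelled shCDK12+OHT. COX8A passed only for OHT in the libraries labelled shCDK12 (0.34 ± 0.11, adjusted p = 0.0139), and with the groups exchanged this change turned its sign. In all, 48 members were called in at least 1 comparison, and 26 were tested and called in none, among them COX5A, COX5B, COX6C and COX7C of complex IV, UQCRB, UQCRQ and UQCRC2 of complex III, and NDUFS4, NDUFS5 and NDUFS7 of complex I. The same count over all genes was not made.

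Lists of genes around the chain are given by their counts, and with the groups of the arm exchanged the signs upon OHT in the shCDK12 arm turn for them too. Their calls between the arms and for differing responses were not counted with the groups exchanged. Over all genes, the difference between the responses was then called for 5.88%, against 45.2% as labelled. The differing responses given for all of these lists thus hold for the labels as given. Of 44 tested assembly factors, which build the complexes without staying in them, 6 were higher and 0 lower upon OHT in shNT (13.6%, against 17.3% of all genes), led by COA7, a factor of complex IV (0.69 ± 0.13, adjusted p = 0.00285), and SDHAF1, which helps load SDHB with iron-sulfur clusters (0.79 ± 0.19, adjusted p = 0.0107). In the libraries labelled shCDK12, 6 of 46 were higher and 14 lower with OHT (43.5%, against 48.9%). The difference between the responses passed for 17 of 45 (37.8%, against 45.2%), 3 more positive and 14 more negative, with COA7 (-0.99 ± 0.15, adjusted p = 3.28e-05) and SDHAF1 (-1.27 ± 0.20, adjusted p = 4.57e-05) among the latter. Between the arms without OHT 14 of 46 were higher and 11 lower (54.3%, against 62.0%), and with OHT 6 of 45 higher and 11 lower (37.8%, against 45.4%).

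Among regulators of mitochondrial biogenesis and of mitochondrial DNA expression, 3 of 15 were higher and 0 lower upon OHT in shNT (20%, against 17.3% of all genes): the coactivators PPRC1 (0.69 ± 0.14, adjusted p = 0.00417) and PPARGC1B (0.92 ± 0.21, adjusted p = 0.00765), and TWNK, the helicase of mitochondrial DNA (0.50 ± 0.14, adjusted p = 0.0220). In the libraries labelled shCDK12 the same 3 were lower with OHT, among 7 of 16 that fell and 2 that rose (56.2%, against 48.9%), and the responses of all 3 differed, that of PPARGC1B the most (-2.18 ± 0.22, adjusted p = 2.1e-07). The interaction passed for 6 of 16 regulators (37.5%, against 45.2%), 2 more positive and 4 more negative. Between the arms 8 of 16 were higher and 3 lower without OHT (68.8%, against 62.0%), and 2 higher and 2 lower with OHT (25%, against 45.4%).

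The list of the tricarboxylic acid cycle outside complex II also held PDHA1, PDHB, DLAT and PDHX, which are genes of pyruvate dehydrogenase. Of the 17 tested genes of this list, 0 passed upon OHT in shNT by edgeR's test (1 had an unadjusted p under 0.05). In the other arm 1 was higher and 3 lower upon OHT (23.5%, against 48.9%). The interaction passed for 3, all with a more negative response there (17.6%, against 45.2%), with DLAT, a subunit of pyruvate dehydrogenase, first (-1.03 ± 0.19, adjusted p = 0.000251). Between the arms 4 were higher and 5 lower without OHT (52.9%, against 62.0%), and 3 higher and 5 lower with it (47.1%, against 45.4%). Of cytochrome c and the genes of coenzyme Q synthesis, 1 of 12 passed upon OHT in shNT (8.33%, against 17.3% of all genes). This was CYCS, which codes for cytochrome c (0.44 ± 0.13, adjusted p = 0.0280), and its response was more negative in the libraries labelled shCDK12 (-0.99 ± 0.17, adjusted p = 8.72e-05). In that arm 3 of 13 of these genes were higher and 2 lower with OHT (38.5%, against 48.9%), and the interaction passed for 3 of 12 (25%, against 45.2%). Between the arms 4 of 12 were higher and 5 lower without OHT (75.0%, against 62.0%), and 1 higher and 2 lower with it (25%, against 45.4%). None of the 13 respiratory chain genes of mitochondrial DNA was found by symbol in the count table, so they were not analysed here.

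Respiratory chain genes are short, with a median span of 10500 bases among the 65 members tested for OHT in shNT against 30400 among all genes tested. Across all genes the log2 fold change upon OHT in shNT fell with the logarithm of the span (r = -0.29) and rose with GC content (r = 0.27), and across the 65 members r was -0.39 and 0.50. The difference between the OHT responses had r of 0.21 with span and -0.12 with GC content across all genes, and of 0.35 and -0.48 across the 72 members. The 7 members with a more negative response had a median span of 3280 bases and GC content of 58.9%, and the 6 with a more positive one 18300 bases and 45.3%. These correlations run across genes, which are not independent replicates, and the part of length and GC content in the differences was not tested beyond the fits with the trends removed.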

How the data were processed

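Newly made RNA was labelled with 5-ethynyl-uridine, captured and sequenced (EU-seq, stranded total RNA libraries) in 12 libraries. The deposited values are raw read counts per gene, and the submitters' processing notes name STAR 2.7.5c, featureCounts 1.4.5-p1 and hg19, while the annotation and the use of strand are not given in the sources used here. Genes are given by Entrez number, of which 23284 of 23434 matched a symbol in the RefSeq table and 150 did not. Counts were analysed in R 4.3.3 with edgeR 4.0.16 (TMM, quasi-likelihood test, Benjamini-Hochberg over all genes tested). Genes with a mean normalised count above 32 over the libraries of a fit were tested, and an adjusted p under 0.05 was called. There were 4 fits of 6 libraries each and 1 of all 12 for the difference between the OHT responses. CPM are scaled by TMM, and levels are divided by the canonical transcript's length where genes are compared.

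The members and the lists of other genes were chosen with earlier results of these data known. Values in every library were given for CDK12, for the members that passed upon OHT in shNT or had the 3 largest differences each way between the responses in a complex, for the SDH genes and for sets of isoforms, and other genes are named where said. The values of 1 member with a differing response are not reported here, though counts include it. Library totals ran from 1251695 to 10447836 counts. In libraries simulated from the shNT and shNT+OHT means, with 200 genes changed 2-fold, 156 were recovered with 9 false calls among 10123 genes. Recovery was 173 of 200 for shCDK12 against shNT, with 4 false calls, and 186 for OHT in shCDK12, with 20. It was 133 for shCDK12+OHT against shNT+OHT and 113 for the interaction, each with 7 false calls. All other genes were left unchanged there, whereas 17.3% to 62.0% of all genes were called in the data. Recovery of changes smaller than 2-fold was not measured. Replicates differed by more than sampling noise, so none was merged. Alternatives were RLE and upper-quartile normalisation, DESeq2 1.42.0, filterByExpr or no filter, the replicate number as a block, 1 fit of all libraries, thinning to the smallest total, removal of the trend in gene length, each library left out and, added after seeing the data, removal of the trends in length and GC content and an exchange of the groups labelled shCDK12 and shCDK12+OHT. Promoters and gene spans came from RefSeq (GRCh38.p14), and transcript length and GC content from GENCODE's canonical transcripts.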

Additional observations from a re-analysis of the deposited data

Results flagged for a closer look

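By the interaction term of the fit of 12 libraries (edgeR's quasi-likelihood test, adjusted p under 0.05), the response to OHT differed between the arms for 13 respiratory chain genes. For 12 of them, as the response in the libraries labelled shCDK12 minus that in shNT, on the log2 scale, the values were -1.67 for ATP5F1D, -1.38 for NDUFA11, -1.24 for NDUFB10, -1.12 for NDUFB9, -0.75 for NDUFB11, -0.73 for COX6A1 and -0.45 for NDUFA10. In the positive direction they were 1.00 for NDUFS1, 0.96 for ATP5PD, 0.91 for ATP5F1C, 0.60 for NDUFA6 and 0.51 for ATP5F1A. The 10 Myc targets all had a more negative response in the same term (median -1.44), and with the groups labelled shCDK12 and shCDK12+OHT exchanged 0 of the 13 genes and 0 of the 10 Myc targets (median -0.049) passed in this term, with 3 and 2 at an unadjusted p under 0.05.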

How the results depend on the processing

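Of 97 called results for single named genes, 47 kept the call under every alternative run other than the exchange of groups, 50 lost it under at least 1, and 0 changed sign. Same-numbered libraries of different groups had correlations of their deviations between -0.092 and 0.304, with 2 of 18 over 0.1. Differently numbered ones had correlations between -0.343 and 0.1, with 0 of 36 over 0.1. The 2 high pairs both joined shNT+OHT and the libraries labelled shCDK12, at 0.275 for replicate 1 and 0.304 for replicate 2, against 0.005 for replicate 3. Whether replicate numbers mark a pairing was not tested beyond the fits with a block. With the replicate number as a block the members called were 3 for OHT in shNT, 35 for shCDK12 against shNT, 24 for OHT in shCDK12, 16 for shCDK12+OHT against shNT+OHT and 13 for the interaction, with medians of 0.13, -0.038, 0.079, 0.0061 and -0.029. For OHT in shNT (4 called, median 0.16), 7 were called in 1 fit of all 12 libraries, 1 with the length trend removed (median 0.043), 2 with length and GC removed (median 0.00018), and 0 to 7 with 1 library left out. For OHT in shCDK12 (22), 14 were called in 1 fit of all libraries and 6 after thinning, and the median ran from 0.022 to 0.17 with 1 library left out. For shCDK12 against shNT (35, median -0.04), 17 were called after thinning, and the median was 0.065 with upper-quartile normalisation, 0.0016 without a filter, 0.11 after thinning, 0.0095 with length and 0.0083 with length and GC removed, and -0.026 to 0.051 with 1 library left out. For shCDK12+OHT against shNT+OHT (19, median -0.012), 9 were called after thinning and 9 to 27 with 1 library left out, the 27 without shNT+OHT replicate 1, and the median was 0.089 with length and 0.13 with length and GC removed. For the interaction (13, median -0.043), 8 were called after thinning and 8 to 17 with 1 library left out, and the median was -0.11 with RLE, -0.16 with upper-quartile normalisation, -0.10 by DESeq2, 0.092 with length and 0.09 with length and GC removed, and -0.08 to 0.037 with 1 library left out. Thinning left 39 to 42 members to test, and for the rest the cause was not tested. Higher and lower calls were 6 and 7 for the interaction, against 4 and 9 with RLE, 4 and 12 with upper-quartile normalisation and 5 and 9 by DESeq2. They were 9 and 10 for shCDK12+OHT against shNT+OHT, against 6 and 12 by DESeq2 and 16 and 10 with length and GC removed, and 13 and 9 for OHT in shCDK12, against 12 and 12 with upper-quartile normalisation and 9 and 11 by DESeq2. With the groups labelled shCDK12 and shCDK12+OHT exchanged, the interaction was called for 3 members (median -0.18), and the median was 0.099 for shCDK12 against shNT and -0.077 for OHT in shCDK12.

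The values that changed sign were not called. Upon OHT in shNT, ATP5MC1 was -0.058 with length and -0.15 with length and GC removed and -0.016 to 0.43 with 1 library left out. ATP5MC3 was 0.027 with RLE, 0.019 with upper-quartile normalisation, 0.018 by DESeq2 and -0.21 to 0.24 with 1 library left out. COX8A was -0.05 with length and -0.14 with length and GC removed, COX4I1 -0.021 with length and GC removed and SDHA -0.093 after thinning. With 1 library left out COX7A2 ran from -0.29 to 0.11, NDUFA6 from -0.19 to 0.068, SDHB from -0.29 to 0.52 and SDHD from -0.32 to 0.0076. CDK12 in shCDK12 against shNT was 0.015 with upper-quartile normalisation, 0.019 with length and 0.0044 with length and GC removed. In the interaction ATP5MC1 was -0.021 with RLE, -0.069 with upper-quartile normalisation, -0.013 by DESeq2 and -0.25 to 0.24 with 1 library left out. COX6B1 was 0.022 with length and 0.07 with length and GC removed and -0.29 to 0.099 with 1 library left out, and COX8A -0.0099 with upper-quartile normalisation and -0.018 to 0.22 with 1 library left out. ATP5MC3 ran from -0.043 to 0.42 and SDHB from -0.61 to 0.25.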
